A study of Drosophila melanogaster with 6 samples.

Results

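Translation initiation factors are the proteins that bring the small ribosomal subunit and the initiator tRNA to an mRNA and find its start codon. The m6A sites listed in their own mRNAs are described here, as measured by miCLIP in S2R+ cells, an established Drosophila melanogaster line that grows in culture. Members were all genes whose current symbol, or name in the authors' lists, starts with eIF, leaving out eIF5A. Only eIF4AIII entered by the authors' name alone. NAT1, an eIF4G relative, and Thor, the eIF4E-binding protein, were members too. The annotation holds 47 such genes, and 34 of them had listed sites. These genes held 474 of the 29142 listed sites, of which 456 lay in exons and are the ones described unless introns are named.

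In miCLIP, fragmented poly(A) RNA is crosslinked with ultraviolet light to an antibody against N6-methyladenosine (m6A). The crosslinked remnant makes reverse transcriptase either misread a neighbouring cytosine, which leaves a C-to-T change in the read, or stop, which leaves a truncated cDNA. m6A often sits on an A that is followed by C, so a truncation at A with a C-to-T change at the next base is a combination the method is designed to detect. Such a combination, with the truncation exactly 1 nt upstream of the C-to-T site, is called a pair below. The study had 4 replicate IPs of untreated S2R+ cells with the m6A antibody, 1 IP without crosslinking as control and 1 library of fragmented mRNA as input. The labels do not tell separate cultures from repeated libraries, and the control libraries are not analysed here.

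The listed values are the authors' combination of the IPs that shared a site (2, 3 or 4 of them), so no site has a value for each replicate, no SD can be given and no test over samples was possible. For a C-to-T site they are the unique tags that cover the position, the tags that carry the changed base, and the percent of tags changed, called conversion here. For a truncation they are the peak height as the site caller gives it and the height expected under its null model; the sources used here do not say how heights from several IPs were merged, so heights and their ranks may not be comparable where sites differ in how many IPs share them. Intervals in brackets after a share are Wilson 95% intervals. They cover counting error only, treat sites of 1 gene as independent, and do not measure the spread between genes or replicates. Coverage is known only at listed C-to-T sites, so an unmarked mRNA and an mRNA too scarce to be sampled cannot be told apart.

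Translation starts in eukaryotes when eIF4E binds the mRNA cap, eIF4G bridges it to the helicase eIF4A, and eIF3 joins this assembly to a small subunit that carries eIF1, eIF1A, eIF5 and the eIF2 complex with its initiator tRNA. eIF2B reloads eIF2 with GTP after each round, and eIF5B helps the large subunit join. These proteins are made in large amounts in growing cells, and several are targets of growth and stress signalling.

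Sites were found in 34 of the 47 initiation factor genes, or 72.3% (58.2% to 83.1%), while 27.3% of all 13968 protein-coding genes had a listed exonic site. C-to-T sites occurred in 21 initiation factor genes, against 9.31% of all protein-coding genes, and truncations in 34, against 27.2%. High shares were not particular to this group. Of 92 ribosomal protein genes 84 had a site (91.3%) and 79 a C-to-T site, and of 8 elongation factor genes 6 and 5 did. The counts by gene show that every initiation factor gene with a C-to-T site also had truncations, and that 13 genes had truncations alone. Truncations were also near the rule over all genes, since 3802 of 3807 protein-coding genes with a site had them. C-to-T sites were listed in 1300 of those 3807, a smaller share than the 21 of 34 in initiation factor genes. The other 13 initiation factor genes had no site of either kind. They were eIF2Bgamma, eIF3d2, eIF3f2, eIF3g2, eIF4B, eIF4H2, eIF4E3, eIF4E4, eIF4E5, eIF4E6, eIF4E7, Thor and eIF6. The genes with sites held a median of 10 sites each, and other genes with sites held a median of 3. Per length, the median was 5.34 sites per kb of exon in initiation factor genes, from 0.22 in eIF4G2 to 15.6 in eIF3g1, and 1.26 in other genes with sites.

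**Figure D1:**
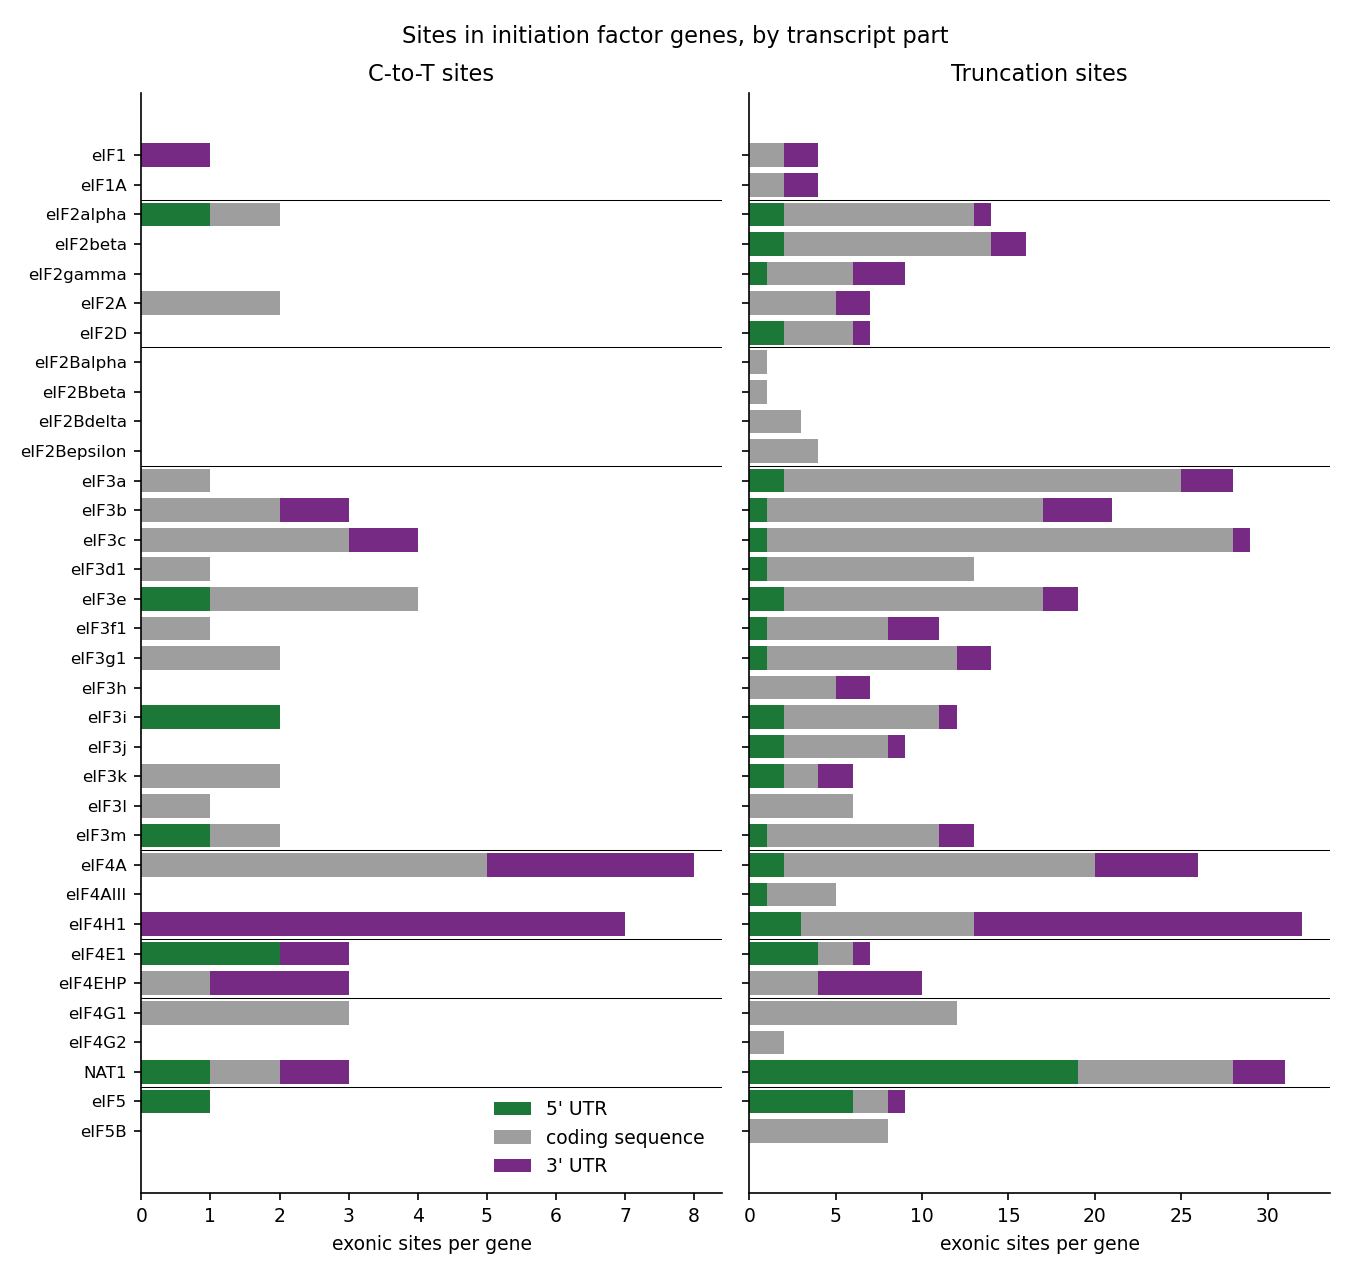
Exonic C-to-T sites (left) and truncation sites (right) in each initiation factor gene with a site, with bar length as the number of sites and colour as transcript part; thin lines separate the complexes. eIF4H1 has 7 C-to-T sites, all in the 3' UTR, eIF4A has 5 in coding sequence and 3 in the 3' UTR, and most truncation bars are mainly grey, for coding sequence.

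Sites in these genes lay mostly in coding sequence. 5' UTRs held 9 of the 56 C-to-T sites (16.1%, 8.69% to 27.8%), against 62.3% over all genes. Coding sequence held 30 of the 56 (53.6%, 40.7% to 66.0%), against 27% over all genes. 3' UTRs held 17 (30.4%, 19.9% to 43.3%), against 10.4% in other genes. Among 400 truncations, 58 were in 5' UTRs (14.5%, 11.4% to 18.3%), against 40% over all genes. Coding sequence held 270 (67.5%, 62.8% to 71.9%), against 46.2% over all genes, and 3' UTRs 72 (18%, 14.6% to 22.1%), against 13.8% in other genes. The 5' UTR share of the initiation factors was thus below that of the other genes for both kinds of site, with intervals that did not overlap.

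The shares of exonic length taken by each transcript part, pooled over genes, were close in both sets. In initiation factor genes with sites, 5' UTRs made up 14.2% of exonic length, coding sequence 65.0% and 3' UTRs 20.8%, while in other genes with sites these parts made up 15.1%, 61.4% and 23.5%. Truncations in initiation factor genes were spread nearly evenly per length, at 4.59 per kb in 5' UTRs, 4.67 in coding sequence and 3.89 in 3' UTRs. In other genes they reached 3.82 per kb in 5' UTRs, 1.06 in coding sequence and 0.84 in 3' UTRs. C-to-T sites in initiation factor genes came to 0.71 per kb in 5' UTRs, 0.52 in coding sequence and 0.92 in 3' UTRs, and in other genes to 1.79, 0.19 and 0.19. Per kb and pooled over genes, the initiation factor genes therefore held fewer C-to-T sites in 5' UTRs than other genes did and more in both other parts. The 5' UTR value rests on 9 sites and differed by complex. It was 1.78 per kb in eIF3, near that of other genes, and 1.17 in eIF2. It was 1.21 in the eIF4E group, 0.27 in eIF4G and NAT1, and 0 in eIF4A, 4B and 4H.

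Ribosomal protein genes had a layout of the same kind, since of 1137 C-to-T sites 71.2% were coding, 10.8% in 5' UTRs and 18.0% in 3' UTRs. In elongation factor genes 70.8% of 233 C-to-T sites were coding, 4.29% in 5' UTRs and 24.9% in 3' UTRs. In the protein-coding genes outside these 3 groups, 5' UTRs held 79.0% of C-to-T sites, coding sequence 13.2% and 3' UTRs 7.76%. The expected truncation height under the null model had a median of 1.73 in initiation factor genes, 6.96 in ribosomal protein genes, 11.1 in elongation factor genes and 0.89 in the genes outside these groups. The part of this value in the layout was not tested.

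**Figure D2:**
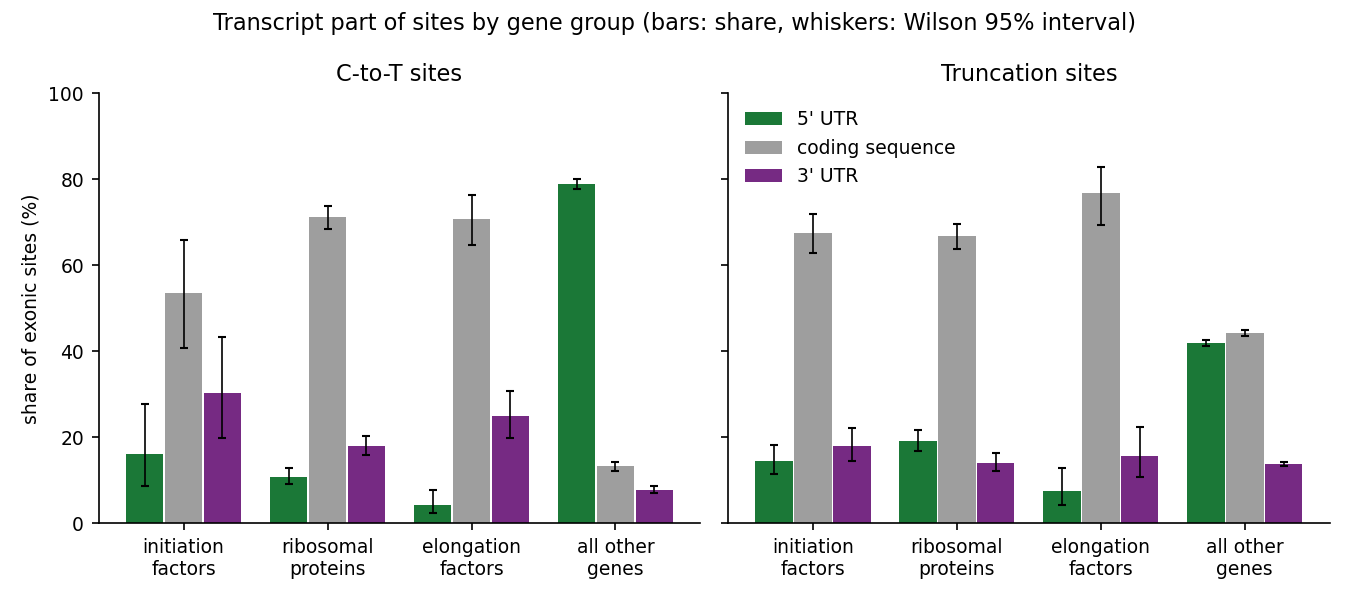
Share of exonic C-to-T sites (left) and truncations (right) in 5' UTRs, coding sequence and 3' UTRs for initiation factor, ribosomal protein and elongation factor genes and for all other protein-coding genes; bars are shares in percent and whiskers Wilson 95% intervals for counting error. The 5' UTR bar for C-to-T sites stands at 16.1% in initiation factor genes and 79.0% in the genes outside the 3 groups.

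Around the ends of the coding sequence, 26 truncations and 4 C-to-T sites lay within 50 nt of a start codon, and 35 truncations and 5 C-to-T sites within 50 nt of a stop codon. Among 3' UTR truncations, 29 of 72 were within 100 nt of the stop codon. The median distance from it was 192 nt for truncations and 295 nt for C-to-T sites. 5' UTR C-to-T sites lay a median of 128 nt from the annotated transcript start. The counts and distances were not set beside those of all genes, so no excess or lack near either codon can be read from them. Initiation factor genes with sites had a median 5' UTR of 189 nt and a median 3' UTR of 264.5 nt, against 322 nt and 456 nt in other genes with sites.

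Truncations of initiation factor genes were at T more often than at A. They fell at T in 176 cases (44%, 39.2% to 48.9%), at A in 137 (34.3%, 29.8% to 39.0%), at C in 44 (11%) and at G in 43 (10.8%). Over all genes 52.1% of exonic truncations were at A, and in other genes 33.6% were at T. T also exceeded A in ribosomal protein genes (40.6% against 34.1%) and in elongation factor genes (50.3% against 27.2%). By part, A made up 36.2% of the 58 truncations in 5' UTRs (25.1% to 49.1%), against 73.6% in 5' UTRs of other genes. The 5' UTR share at A was 16.8% in ribosomal protein genes, and in elongation factor genes 4 of 11 were at A. The coding share of A was 34.1% in initiation factor genes (28.7% to 39.9%) and 37.5% in other genes. The 3' UTR share was 33.3% in initiation factor genes (23.5% to 44.8%) and 40.0% in other genes. The gap to other genes was thus widest in 5' UTRs, and in both other parts the interval for the initiation factors held the value of the other genes. How many A and T bases each part offers was not measured.

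A single gene, NAT1, held 19 of the 58 truncations in 5' UTRs, 14 of them at T. Without NAT1, 17 of 39 were at A (43.6%, 29.3% to 59.0%). Among the 34 genes, 21 had more truncations at T than at A, 10 had more at A and 3 had as many at each. In the 28 genes with 5 or more sites, the share at A ranged between 11.1% in eIF2gamma and 85.7% in eIF4E1. The cap-binding genes eIF4E1 and eIF4EHP stood at the high end, with 14 of their 17 truncations at A.

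**Figure D3:**
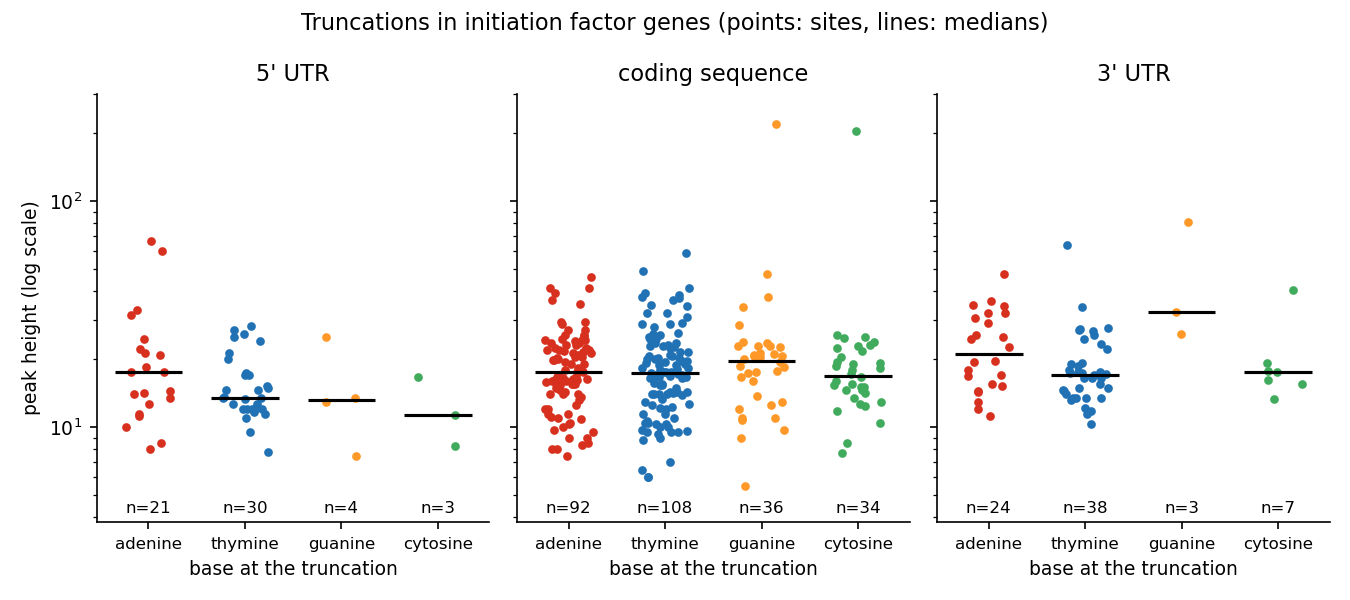
Peak height (log scale) of each truncation in initiation factor genes, by base and transcript part; points are sites, spread sideways for view, and lines are medians. In coding sequence 92 truncations fall at adenine and 108 at thymine, with medians of 17.5 and 17.4, and the highest points, at guanine and cytosine, are in eIF4H1 and eIF3b.

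The median peak height of truncations in initiation factor genes was 17.8 at A, 17.0 at T, 20 at G and 16.7 at C. In other genes it was 16.3 at A, 13.4 at T, 13 at G and 14.3 at C. Over all bases the median height was 17.4 in initiation factor genes, from 5.5 to 220.9, and 14.8 in other genes. Relative to the null expectation the order turned round, with a median ratio of 10.7 in initiation factor genes and 16.4 in other genes. The number of truncations per kb and the median null expectation ranked the 34 genes alike (Spearman's rho 0.89), and both come from the same reads. The count of truncations and exonic length gave a rho of 0.29.

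Within codons, truncations of initiation factor genes were at position 1 in 50.4% of 270 cases, at position 2 in 20% and at position 3 in 29.6%. The shares in other genes were 51.7%, 19.7% and 28.6%. Position 3 held 13 of 92 truncations at A (14.1%) and 24 of 34 at C (70.6%), against 16.7% and 63.8% in other genes.

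Pairs, in which the truncation sits at an A directly before the converted C, made up 18 of 56 C-to-T sites (32.1%, 21.4% to 45.2%), in 12 genes, beside 34.4% over all genes. In 3' UTRs 9 of 17 C-to-T sites were paired (52.9%, 31.0% to 73.8%), against 18.7% in 3' UTRs of other genes. In 5' UTRs 5 of 9 were paired, against 49.1%, and in coding sequence 4 of 30 (13.3%, 5.31% to 29.7%), against 6.2%. The 3' UTR pairs came from eIF4H1 with 4, eIF4EHP with 2, and eIF1, eIF4A and NAT1. Ribosomal protein genes had pairs at 2.73% of their C-to-T sites, and elongation factor genes at 0 of 233. In the genes outside these 3 groups 44.3% were paired, by part 50.8% in 5' UTRs, 13.9% in coding sequence and 29.7% in 3' UTRs. Beside those genes, the coding share of the initiation factors was thus near equal and the gap in 3' UTRs was smaller. Seen from the truncations, 13.1% of those at A in initiation factor genes were followed by a listed C-to-T site, against 19.8% in other genes.

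Conversion in initiation factor genes had a median of 4.80% (quartiles 3.13% and 6.87%), from 1.24% to 17.1%, against a median of 3.34% in other genes. Median coverage of these sites was 143 unique tags, with a lowest value of 25.3 and a highest of 626.7, against a median of 284 in other genes. A median of 6.5 tags carried the change, from 4.0 to 12.2, against 8.25. The changed tags thus spanned a narrow range, and conversion fell as coverage rose (Spearman's rho -0.94 over 56 sites and -0.87 over 5839 sites of other genes). Conversion is the ratio of changed tags to coverage, so this relation is partly built into the measure.

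No initiation factor site under 100 tags was paired. There were 17 such sites, with a median conversion of 9.19%, and 0 of 17 allows a paired share of up to 18.4% by the Wilson interval. Of these 17 sites 10 were coding, 4 in 3' UTRs and 3 in 5' UTRs. In other genes 8.21% of such coding sites, 33.6% of those in 3' UTRs and 55.7% of those in 5' UTRs were paired, or 335 of all 820 (40.9%), of which 506 were in 5' UTRs. At 100 tags or more, 18 of 39 initiation factor sites were paired (46.2%), with a median conversion of 3.76%, while in other genes 33.4% were paired. By part, 9 of these 13 sites in 3' UTRs, 4 of 20 in coding sequence and 5 of 6 in 5' UTRs were paired, against 15.5%, 5.9% and 48.0% in other genes. Those other genes include the ribosomal protein and elongation factor genes, whose C-to-T sites were rarely paired. The paired sites of initiation factor genes had at least 128.7 tags and a median conversion of 4.80%, the unpaired a median of 5.26%. In other genes the order was reversed, with medians of 4.70% for paired and 2.51% for unpaired sites.

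**Figure D4:**
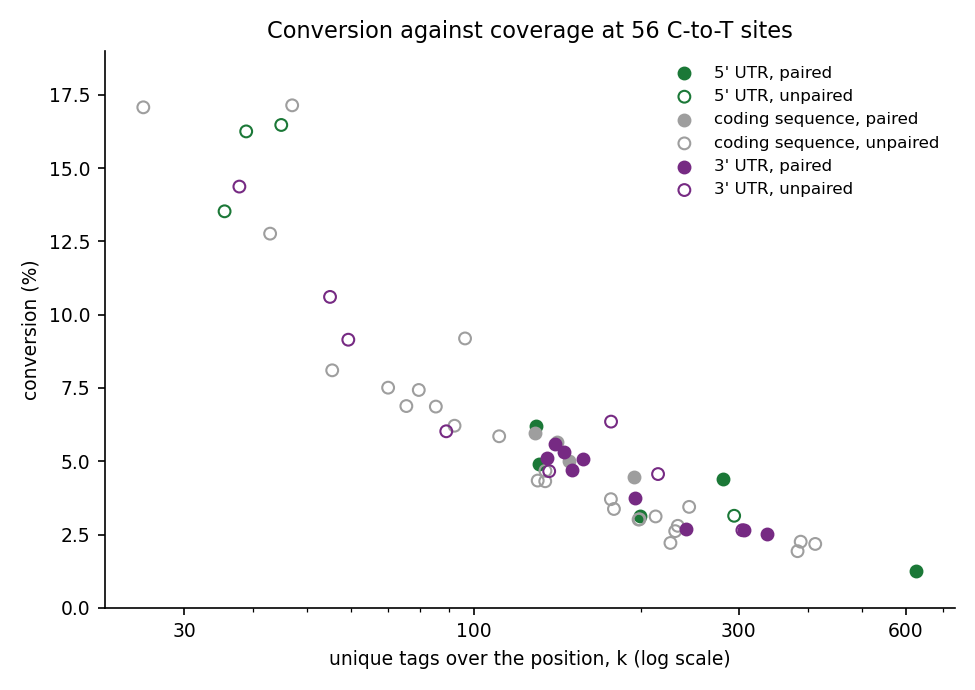
Conversion (%) against the number of unique tags (log scale) at the 56 C-to-T sites of initiation factor genes; filled points are paired sites, open points unpaired sites, and colour marks the transcript part. Open points alone fill the region under 100 tags, and conversion declines with coverage from 17.1% to 1.24%.

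Support among the IPs was lower for C-to-T sites of these genes than elsewhere. Of the 56 sites 25 were shared by 2 IPs, 19 by 3 and 12 by 4, and the share in 4 IPs was 21.4%, against 35% over all genes. Truncations were shared by 2 IPs in 191 cases, by 3 in 98 and by 4 in 111, and their share in 4 IPs was 27.8% in both initiation factor genes and all genes. All 3 aligners gave 19 of the C-to-T sites and 214 of the truncations, or 33.9% and 53.5%, against 43.5% and 59.7% over all genes. A single aligner gave 14 and 110.

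eIF4H1 had the most exonic sites of the group. It encodes a relative of mammalian eIF4H, a cofactor that stimulates the helicase eIF4A, and the authors list it under its older name Rbp2 (FBgn0262734; dm6 chromosome X, 16448665 to 16454972, plus strand). Its 39 sites place it 50th among 3807 genes with sites. There were 7 C-to-T sites, every one in the 3' UTR, and 32 truncations, 19 of them in the 3' UTR, 10 in coding sequence and 3 in 5' UTRs. The 3' UTR made up 65.2% of its exonic length. Truncations per kb were 6.58 there, 8.49 in coding sequence and 8.22 in 5' UTRs. The gene has 5 annotated transcripts, of which 3 end at position 16453615 with a 3' UTR of 1530 nt and 2 at 16454972 with one of 2887 nt.

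The 7 C-to-T sites of eIF4H1 fell in a proximal and a distal set. The proximal set lay 491, 742 and 775 nt after the stop codon, at positions 16452576, 16452827 and 16452860. At 491 nt 3.76% of 195 tags were converted, at 742 nt 2.68% of 241.5 and at 775 nt 2.64% of 306.2, and all 3 sites were paired. The paired truncations had heights of 34.7, 19.5 and 25.6. The distal set lay past the end of the shorter 3' UTR, at positions 16454307, 16454345, 16454428 and 16454927. Only the site 2222 nt after the stop codon was paired there, with 5.10% of 135.25 tags converted. At 2260 nt 6.35% of 176.6 tags were converted (3.51% to 10.8%), or 11.3 tags, in 4 IPs and with all 3 aligners. At 2343 nt the value was 6.02% of 89.1 tags, and at 2842 nt it was 10.6% of 55 tags (5.10% to 21.8%). The distal sites had higher conversion and lower coverage than the proximal ones, and they lie only in the longer annotated transcripts. Of the 32 truncations, 3 lay past the shorter end.

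**Figure D5:**
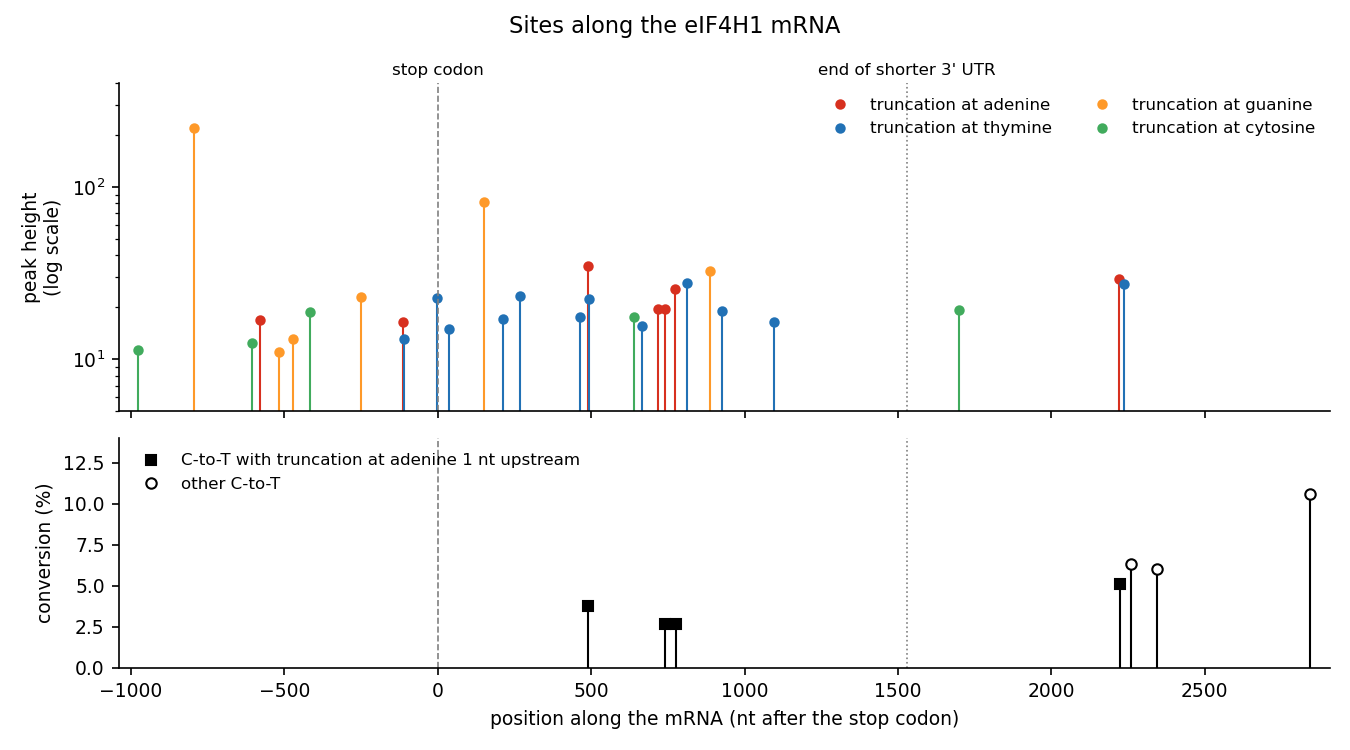
Sites along the eIF4H1 mRNA in nt after the stop codon: truncation peak height (top, log scale, coloured by base) and C-to-T conversion in percent (bottom, squares for paired sites). The drawing holds all 7 C-to-T sites and 30 of the 32 truncations, since 2 lie in an alternative first exon; 4 C-to-T sites are right of the dotted line that marks the end of the shorter 3' UTR.

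eIF4H1 also held the tallest truncation of the initiation factors. It fell at G in coding exon 2 (position 16450025), with a height of 220.9, which is 77.5 times its null expectation of 2.85, in 4 IPs and with all 3 aligners. Among 19715 exonic truncations it ranked 37th, and among the 1466 at G it ranked 4th. A further truncation at G, 151 nt after the stop codon (position 16452236), had a height of 81.4 and ranked 559th. Neither had a C-to-T site next to it. The bases of the 32 truncations were T in 12 cases, A in 9, G in 6 and C in 5.

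eIF4A, the DEAD-box helicase that unwinds 5' UTRs during scanning, had 34 sites on chromosome 2L (5981764 to 5985909). Its 8 C-to-T sites were the highest number of any member. In coding sequence 5 of them were converted at 1.93% to 3.44%, none of them paired. In the 3' UTR the 3 sites lay 197, 248 and 381 nt after the stop codon, with conversions of 2.53%, 4.56% and 2.65%. The site at 197 nt was paired. The one at 248 nt (position 5985418) had 9.67 converted tags, with truncations listed at the same base, 1 nt downstream and at the A 2 nt upstream. Its tallest truncation, at T in the 3' UTR (position 5985513), had a height of 64.0 and ranked 907th. eIF4A had the highest median null expectation of the members, 4.25. eIF4AIII, a helicase of the exon junction complex rather than of initiation itself, had 5 truncations and no C-to-T site.

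eIF3, the many-subunit scaffold on the small ribosomal subunit, was represented by 13 of 16 genes, with 23 C-to-T sites and 188 truncations. Coding sequence held 17 of the C-to-T sites and 149 of the truncations (79.3%), 5' UTRs held 4 and 16, and 3' UTRs held 2 and 23. The subunits without sites, eIF3d2, eIF3f2 and eIF3g2, are duplicates of eIF3d1, eIF3f1 and eIF3g1, which had 14, 12 and 16 sites. Pairs were seen at 3 of the 23 C-to-T sites.

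Within eIF3 the large core subunits led by count, with 33 sites in eIF3c, 29 in eIF3a and 24 in eIF3b, and eIF3e followed with 23. Per kb of exon these core subunits had 9.94, 7.45 and 8.95 sites, below eIF3g1 with 15.6, eIF3e with 15.1 and eIF3i with 11.9. eIF3c (chromosome 2R, 17665678 to 17669275) had 4 C-to-T sites, 3 coding and 1 in the 3' UTR, none of them paired. The coding site at 17667986 had 9.08 converted tags, a conversion of 9.19% (5.01% to 16.9%) and support from 4 IPs. The other values were 7.43% at 17666476, 3.71% at 17668845, 16 nt before the end of the stop codon, and 9.14% in the 3' UTR at 17669169. Its 29 truncations, 27 of them coding, spanned heights of 13 to 41.5 with a median of 20.8, and 13 were at T and 10 at A. In eIF3b a truncation at C in coding sequence (position 17537889) had a height of 205.4, 78.1 times its null expectation. It ranked 45th of all exonic truncations and 2nd of the 1325 at C. The 21 truncations of eIF3b had a median height of 19, so this position stood far above the rest of the gene. Its 3 C-to-T sites, at 2.62%, 4.67% and 4.66%, were unpaired, as was the single one of eIF3a, at 4.34% of 130.25 tags.

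The C-to-T sites of eIF3 in 5' UTRs belonged to eIF3e, eIF3i and eIF3m. eIF3m had a paired C-to-T site 14 nt before the start codon (position 14164545) with the lowest conversion of all, 1.24% of 626.7 tags (0.65% to 2.50%). The truncation of that pair had a height of 66.7 and ranked 830th. eIF3i, a WD-repeat subunit, had a paired site also 14 nt before its start codon (position 4967707, 6.19% of 129.6 tags). Its other C-to-T site (position 4967770) was converted at 16.5% of 44.9 tags (7.75% to 28.8%). eIF3e had a 5' UTR site at 16786933 with 16.2% of 38.8 tags and 3 coding sites at 3.01%, 3.12% and 6.88%. The sites at 4967770 and 16786933 were the 2 C-to-T sites of the group that lay within 10 nt of an annotated transcript start, and neither was paired. In eIF3g1 a coding site 6 nt before the end of the stop codon was paired (position 2609379, 5.0% of 148.5 tags, 4 IPs).

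The remaining eIF3 subunits had few C-to-T sites. eIF3l had 1, at 17.1% of 25.3 tags (position 12143853), the lowest coverage of the group. eIF3k had 2 coding sites, at 6.21% and 7.51%, and 8 sites in all. eIF3d1 and eIF3f1 had 1 each, at 6.86% and 5.85%. eIF3h and eIF3j, with 7 and 9 truncations, had none.

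The eIF2 group, which delivers the initiator tRNA, had sites in all 5 genes, with 4 C-to-T sites and 53 truncations. eIF2alpha, the subunit phosphorylated under stress, had 16 sites on chromosome X (16445176 to 16446993). Its C-to-T site 7 nt before the start codon (position 16446886) was paired and converted at 3.13% of 199.5 tags. The truncation of that pair, at 31.5, was the tallest of the 14 in the gene, and the others went from 12.5 to 25.2. A coding C-to-T site at 16445713 had a conversion of 3.37% and was unpaired. eIF2beta also had 16 sites (chromosome 3L, 12525093 to 12526731), all of them truncations, with heights of 12.5 to 26.97 and 12 of them in coding sequence. These genes with equal counts thus differed in whether any C-to-T change was listed. eIF2gamma, the GTP-binding subunit, had 9 truncations, 7 of them at T.

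eIF2A and eIF2D, which can deliver initiator tRNA or recycle subunits apart from the eIF2 complex in mammals, had 9 and 7 sites. In eIF2A 2 coding sites had high conversions at low coverage, 17.1% of 47 tags (8.89% to 30.1%) at 21826863, in 4 IPs, and 12.8% of 42.9 tags at 21825297. eIF2D had truncations alone, 5 of 7 at A.

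eIF2B, the exchange factor that recharges eIF2 with GTP, was the complex with the fewest sites per gene. There were 9 truncations in 4 of its 5 genes, all in coding sequence, and no C-to-T site. eIF2Bepsilon, the catalytic subunit, had 4, with heights of 11.5, 12.75, 9.0 and 8.5 at positions 1921290, 1921745, 1921763 and 1922216 of chromosome X. eIF2Bdelta had 3, and eIF2Balpha and eIF2Bbeta had 1 each. Median null expectations in these genes were between 0.25 and 0.59, below the group's median of 1.73.

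eIF1 and eIF1A, which hold the small subunit in its scanning state, had 5 and 4 sites. eIF1 (chromosome 3L, 3223341 to 3224650) had 1 C-to-T site, 75 nt after the stop codon at position 3224535, with 5.33% of 145.25 tags converted. It was paired with a truncation of height 18.0, and the other 3 truncations had heights of 14.3, 17.5 and 13.5. eIF1A had 4 truncations, from 9.0 to 16.8.

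Among the cap-binding proteins, sites were confined in these lists to eIF4E1 and eIF4EHP, which together had 6 C-to-T sites, 4 of them paired, and 17 truncations. eIF4E1, the main cap-binding initiation factor, had 10 sites on chromosome 3L (9399618 to 9402460). The C-to-T site in its 5' UTR at 9401307, 211 nt before the start codon, had the most converted tags of the group, 12.2 of 280.9 (4.39%, 2.46% to 7.31%). It was seen in 4 IPs and with all 3 aligners, and its paired truncation had a height of 60. A neighbour 18 nt closer to the start codon, at 9401289, was converted at 3.14% of 294.4 tags and was unpaired. A site 12 nt after the stop codon (position 9399858) had 14.4% of 37.8 tags.

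eIF4EHP binds the cap without recruiting eIF4G and is known in Drosophila for repressing caudal and hunchback mRNA in the embryo. It had 13 exonic sites, within a 472-nt stretch of chromosome 3R (24101469 to 24101940, minus strand). All 3 of its C-to-T sites were paired. They were the coding site at 24101830, 32 nt before the end of the stop codon, with 8.78 of 194.2 tags converted (4.47%), and the 3' UTR sites at 24101583 and 24101503 with 4.70% of 150.25 and 5.09% of 156.9 tags. Their paired truncations had heights of 46.3, 36.3 and 32.2, the tallest of the 10 in the gene, and 8 of the 10 were at A. Of the 13 sites, 7 lie in exons that another gene shares. eIF4E3 to eIF4E7, paralogs of eIF4E1, and Thor, its translational repressor, had no site.

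The scaffold group of eIF4G1, eIF4G2 and NAT1 had 6 C-to-T sites and 45 truncations. NAT1, which is related to mammalian DAP5 and lacks the eIF4E-binding region of eIF4G, had 34 sites on chromosome 2R (12915994 to 12923734), 20 of them counted as 5' UTR. Of those 20, 11 are coding in another annotated isoform, whose coding sequence of 4467 nt is longer than the shortest one of 2757 nt. NAT1 had 3 C-to-T sites. The one in the 3' UTR, 248 nt after the stop codon (position 12923305), was paired and converted at 5.60% of 140 tags in 4 IPs. The 5' UTR site at 12918280 had 13.5% of 35.5 tags and the coding site at 12920237 had 8.10% of 55.5, both unpaired. The 31 truncations went from 9.5 to 41.2 in height with a median of 13.6, of which 20 were at T and 9 at A.

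eIF4G1, the main scaffold, lies on chromosome 4 and had 15 sites, all in coding sequence. Its 3 C-to-T sites lay in exon 9, the outermost of them 61 nt apart. They were at 920466 with 5.96% of 128.7 tags in 4 IPs, at 920420 with 5.64% of 141 and at 920405 with 4.32% of 134.4, and the first and second of these were paired. They account for 2 of the 4 paired coding sites of the group. eIF4G2, a paralog, had 2 truncations, of heights 5.5 and 10.3, the lowest number per kb of any member with sites. A further 5 sites in its first exon carry the name of an overlapping gene, CG33111, in the authors' lists and are not counted.

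eIF5, which triggers GTP hydrolysis by eIF2 at the start codon, had 10 sites on chromosome X (15987008 to 15991974), 7 of them in the 5' UTR. Its C-to-T site at 15991847, 1018 nt of mRNA before the start codon, was paired and converted at 4.90% of 131 tags. Truncation heights went from 8.25 to 33.2. All 10 positions also lie in exons of another gene, so they cannot be assigned with certainty. eIF5B, the subunit-joining GTPase, had 8 truncations in coding sequence, 5 of them at A, and no C-to-T site.

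Proteins that act on these factors were described as a separate list of 19 genes, of which 15 had sites and 9 had C-to-T sites, against 27.3% and 9.31% of all protein-coding genes. In the initiation factors themselves 5' UTRs held 16.1% of C-to-T sites, while in these regulators they held 28 of 51 (54.9%, 41.4% to 67.7%). pAbp, the poly(A)-binding protein, held 19 of the 51, with 1 in the 5' UTR, and without it 27 of 32 lay in 5' UTRs (84.4%). The share over all genes was 62.3%, and that of the genes outside the 3 groups named above was 79.0%. larp, a relative of the mRNA-binding regulator LARP1, had 10 of 11 C-to-T sites in its 5' UTR, and the RNA helicase gene bel had 5 of 5. PPP1R15, which directs the dephosphorylation of eIF2alpha, had 5 of 5, and the ribosomal protein kinase gene S6k had 4 of 4. Pdcd4 and mTor had 1 of 1 each, while Lk6 had 1 of 3 and crc 0 of 2. Gcn2, cup, DENR and MCTS1 had no site. S2R+ cells are described as haemocyte-like, and of 12 haemocyte markers 5 had sites (srp, Pxn, vkg, Sr-CI and ush) and 7 had none, Hml, NimC1 and He among them. That is 41.7% (19.3% to 68.0%), an interval that holds the 27.3% of all protein-coding genes. A site shows that an mRNA was sampled and says nothing of its level.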

How the data were processed

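Sites were taken from the authors' deposited lists, whose values combine 4 m6A IPs of S2R+ cells. The genome build dm6 and the tools STAR 2.4.2a, Bowtie 1.1.2, cutadapt 1.8, BWA and Novoalign are named in the submitters' processing notes, which give them no roles. Per the file headers, each cell holds 1 value for each of Novoalign, STAR and BWA. These were averaged over the aligners that gave a site, and the highest number of IPs was kept.

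Per the file headers, the deposited C-to-T values are unique tag counts, changed tag counts and their percent, and the deposited truncation values are peak height, null height, p-value and base. The listed false discovery rate of these genes' C-to-T sites was always 0. The sources used here do not say whether sites found in the controls were removed.

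Positions were placed on Ensembl release 115 (BDGP6.54, dm6 coordinates) with 5' UTR before coding sequence before 3' UTR where isoforms differ, which differed from the authors' label at 14 sites. Of the 456 exonic sites, 19 lie in exons of more than 1 gene. Python 3.11.15 with pandas 2.3.3 and SciPy 1.17.1 gave counts, medians and Wilson intervals. In a check, the placement step was right for all 1500 positions planted in the annotation. The pairing step was right for all 2000 planted C-to-T sites, some with and some without a truncation at A directly upstream.

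The members, gene lists and alternatives were chosen with earlier results of these data known, so no test over the members was made. Named were every member with a site, all C-to-T values of eIF4H1 and of the gene with most sites in each complex, and the 5 highest sites by converted tags, conversion and peak height. Truncations of genes with many were given as ranges. Sequence windows were not used here.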

Additional observations from a re-analysis of the deposited data

How the results depend on the processing

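Restricting the lists to sites in 4 IPs left 12 C-to-T sites and 111 truncations, and restricting them to sites from all 3 aligners left 19 and 214. Counting any truncation within 3 nt as a pair moved the paired share to 50%. Requiring 100 tags moved it to 46.2% and the median conversion to 3.76%. Truncations with a height of 20 or more had a 5' UTR share of 10.9%. Of 45 alternatives these 8 values moved. The other 37 stayed within the interval of the reported value or within 1.5 times the count, among them those without eIF4H1, with coding sequence placed before 5' UTR, with the authors' part labels, and with sites in exons of 1 gene. The 5' UTR share of C-to-T sites was between 14.8% and 21.1% throughout. No paired analysis was possible because the lists hold no value for single replicates, and for the same reason no replicate could be left out. At 17 of the 56 C-to-T sites fewer than 100 tags were counted, and mRNA abundance was not measured.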

Other observations

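Introns of 13 initiation factor genes held 17 truncations and 1 C-to-T site, which are outside the counts above. Of the 17 truncations, 14 lay within 3 nt of an annotated exon of the same gene, and 16 were given by a single aligner. Their bases were C in 8 cases, G in 4, T in 3 and A in 2, and their median height was 25, against 17.4 for exonic truncations of these genes. Those of eIF3b, eIF3c, eIF3d1 and eIF3g1 were each at G, 1 nt from an exon, with heights of 26.3, 25.8, 19 and 26.5. The intronic C-to-T site, in eIF4A at position 5985023 and 3 nt from an exon, had 8.83 of 66.3 tags converted (13.3%), with truncations listed at the same base and 1 nt upstream. The farthest intronic truncation, in eIF4EHP, was 3886 nt from an exon and was the only one given by more than 1 aligner. The part of the aligner in these positions was not tested.

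Among the 400 exonic truncations of initiation factor genes, 11 neighbouring pairs were 1 nt apart, 1 of them with both sites given by a single aligner. Over all protein-coding genes there were 377 such neighbours among 19715 truncations, 61 of them with both sites from a single aligner. At the C-to-T sites a truncation of any base lay within 3 nt for 28 of 56, and 18 of these were pairs.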
